A study of Mus musculus with 2 samples.

Results

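Accessible chromatin at 10 zinc finger transcription factor genes was examined in wild-type mouse striatum at E14.5. The genes were Bcl11a, Bcl11b, Zfp503, Zfp703, Zfp521, Zfp423, Ikzf1, Tshz1, Tshz2 and Tshz3, all of which were found in the RefSeq gene table of assembly GRCm38.p6. A locus was taken as the annotated gene span with 50 kb on each side. Every peak that met a locus was included, which gave 232 of the 87174 peaks of the series, and no peak fell in more than 1 of these loci. The material was 1 group of 2 single-nucleus ATAC-seq libraries, an assay in which a transposase tags accessible DNA nucleus by nucleus. The labels give wild-type mice on a C57BL/6J and CD1 background and no treatment, and do not say whether the libraries came from separate embryos. The deposited result is 1 list of mm10 peak positions for the whole series, without a count, score or cell type. A peak therefore says that a region was called accessible somewhere in the dissected tissue, and no value below has a replicate error or a test.

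As background, zinc finger factors bind DNA through small domains held in shape by a zinc ion, and several families of them act in the ganglionic eminences and their neurons. Bcl11b, also called Ctip2, is needed for the differentiation of striatal medium spiny neurons, and its paralog Bcl11a, or Ctip1, acts in cortical projection neurons and represses fetal globin genes in red cells. Zfp503, or Nolz1, marks the striatal primordium, and Zfp703 belongs to the same small family. Zfp521 and Zfp423 carry long arrays of zinc fingers and bind Ebf factors. Tshz1, Tshz2 and Tshz3 are the teashirt homologs, of which Tshz1 acts in interneurons of the olfactory bulb and Tshz3 in cortical and striatal circuits. Ikzf1 encodes Ikaros, a regulator of lymphocytes that has also been described in striatal neurons.

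A peak within 1000 bp of either end of the span, called a gene-end peak here, was present at all 10 genes, against 67.3% of 21774 protein-coding genes. Peaks lay near each end of Bcl11b, Zfp503, Zfp703 and Zfp423, or 4 of 10 genes, against 14.8% of protein-coding genes. At Bcl11a, Ikzf1, Tshz2 and Tshz3 only the end with the lower coordinate had one, and at Zfp521 and Tshz1 only the other end. At the short genes Zfp503 and Zfp703 a single peak lay near both ends, and the 14.8% is not matched for gene length. As a check of the tissue, all 15 listed striatal and ganglionic eminence markers had a gene-end peak, 11 of them with a peak of the broadest 1% nearby. All 7 cortical excitatory markers also had a gene-end peak, 1 of them a broad one, and so did 2 of 5 microglial, 3 of 4 endothelial, 2 of 4 erythroid, 1 of 3 skeletal muscle and 1 of 3 liver markers, none of them with a broad one. The part of such other cells in the peaks described here was not tested.

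The loci differed in size and in the number of peaks. On chromosome 11, Bcl11a spans 24076564 to 24173558 and held 18 peaks, and on chromosome 12 Bcl11b spans 107910403 to 108004145 and held 32. Zfp503 on chromosome 14 (21983959 to 21989601) held 10 peaks and Zfp703 on chromosome 8 (26977336 to 26981462) held 12, nearly all of them in the flanks of these short genes. Zfp521 on chromosome 18 (13687013 to 13972749) held 33, and Zfp423 on chromosome 8 (87661810 to 87962053) held 53, the most of the 10. Tshz1 on chromosome 18 (84011627 to 84087708) held 15, Tshz2 on chromosome 2 (169632509 to 170072751) held 41 and Tshz3 on chromosome 7 (36698118 to 36773553) held 12. Ikzf1 on chromosome 11 (11684962 to 11772930) held 6, the fewest. Of the 232 peaks, 206 were distal, meaning that they lay more than 1000 bp from the ends of every annotated gene span. Start sites inside a span did not count as ends. The median width of the 232 peaks was 604.5 bp against 565 bp for all peaks. In total the peaks of the 10 loci added up to 266.7 kb.

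**Figure D1:**
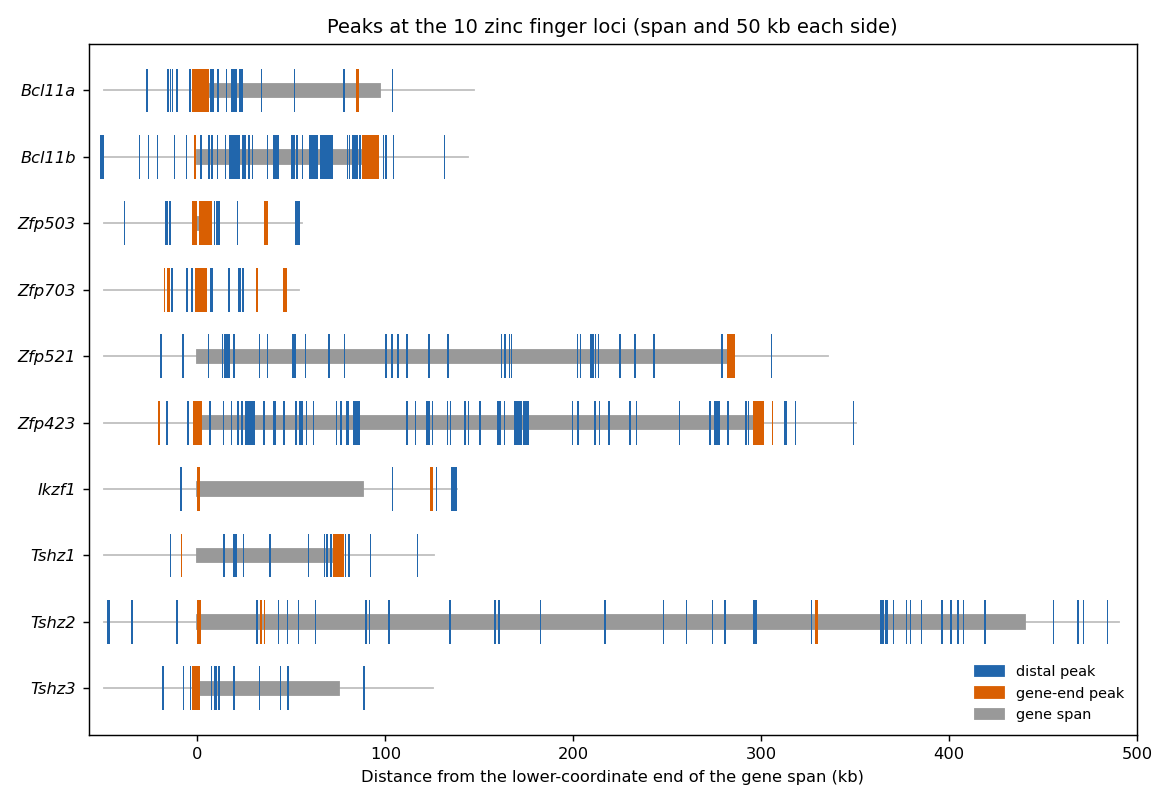
Peaks at each of the 10 loci, drawn as boxes along the distance in kb from the lower-coordinate end of the gene span. Grey bars are gene spans, thin lines the 50 kb flanks, blue boxes distal peaks and orange boxes gene-end peaks, each drawn at least 0.7 kb wide. Boxes fill much of Bcl11b, whereas a single box lies over Ikzf1.

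Bcl11b had more of its sequence in peaks than Bcl11a, although the genes are of nearly the same length (93743 and 96995 bp). The Bcl11b locus held 30 distal peaks and the Bcl11a locus 16. Peaks covered 43.8% of the Bcl11b span and 17.6% of the Bcl11a span, against a mean of 4.56% in protein-coding genes of similar length. Within the loci, distal peaks covered 39127 bp at Bcl11b and 12145 bp at Bcl11a. By number alone the contrast was less firm. Bcl11a held 34.8% of the pair's distal peaks, and the exact 95% binomial interval (Clopper-Pearson, 21.4 to 50.2%) still contained equal shares. That interval covers counting only, and peaks of a locus are not independent.

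What set the Bcl11b locus apart from that of Bcl11a was a row of broad peaks inside the gene. Both start sites lay under peaks of like width, 9367 bp at Bcl11a (24073488 to 24082855, rank 76 of all peaks by width) and 8733 bp at Bcl11b (107998169 to 108006902, rank 98). The Bcl11a peak also lay within 1000 bp of an end of another annotated gene, A830031A19Rik, whereas the Bcl11b peak lay near the end of Bcl11b only. Downstream of its start site Bcl11b had 3 further peaks of the broadest 1%, which are those of 4480 bp or more. They measured 6988 bp at 20.9 kb, 5218 bp at 28.6 kb and 5897 bp at 70.4 kb from the start site. Bcl11a had no second peak of that class, and its widest distal peaks were 3304 bp at 13.5 kb and 2107 bp at 17.998 kb. The longest stretch without a peak was 7863 bp in the Bcl11b span, or 8.39% of it, and 25793 bp in the Bcl11a span, or 26.6%. The typical distal peak was of like width in both loci, with a median of 511 bp at Bcl11b and 517.5 bp at Bcl11a, so that a few broad peaks made up most of the difference in base pairs.

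The 250 bases before the RefSeq start sites of these paralogs (GRCm38.p6) are shown because both lay wholly inside the broad peaks just named and yet differ in composition. They are written 5′ to 3′ along the gene, and capitals mark matches to the searched motifs described further on.
Bcl11a, chr11:24080445-24080694, strand +: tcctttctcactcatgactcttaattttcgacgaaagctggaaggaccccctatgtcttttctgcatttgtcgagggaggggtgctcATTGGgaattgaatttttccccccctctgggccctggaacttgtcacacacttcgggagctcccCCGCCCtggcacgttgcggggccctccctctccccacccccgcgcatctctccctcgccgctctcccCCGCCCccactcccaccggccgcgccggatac
Bcl11b, chr12:108003415-108003664, strand -: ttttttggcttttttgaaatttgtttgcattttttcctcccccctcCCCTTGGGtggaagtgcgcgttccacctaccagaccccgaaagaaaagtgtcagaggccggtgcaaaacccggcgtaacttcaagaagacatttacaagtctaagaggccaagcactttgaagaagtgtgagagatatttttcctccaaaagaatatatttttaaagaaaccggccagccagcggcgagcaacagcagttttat
The Bcl11a sequence was 62% G or C and held 16 CpG, whereas that of Bcl11b was 44.8% G or C and held 9 CpG. In the Bcl11a sequence the capitals are 2 GC boxes and 1 CCAAT box, all read on the opposite strand. In the Bcl11b sequence they are a single EBF core, from -204 to -197 relative to the start site.

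Zfp503 and Zfp703 were much alike in the broad peak over the gene and in the number of distal peaks. Each is a short gene lying almost wholly under 1 broad peak. At Zfp503 that peak measured 7312 bp (21984618 to 21991930) and peaks covered 88.3% of the span. At Zfp703 it measured 6758 bp (26975754 to 26982512) and covered 99.98% of the span. Each of these broad peaks also lay within 1000 bp of an end of another annotated gene, A330001L22Rik at Zfp503 and Gm39150 at Zfp703. Both loci held 7 distal peaks, so that each had 50% of the pair's distal peaks (exact 95% interval 23.0 to 77.0%). With so few peaks, that interval does not show that the loci are alike. Across alternative settings the Zfp503 share ranged from 40 to 56.5%, on either side of equal shares. The distal peaks differed in width, with a median of 685 bp at Zfp503 and 1192 bp at Zfp703. The widest distal peaks measured 2967 and 1697 bp. Each gene has a protein-coding neighbour close on its higher-coordinate side. For Zfp503 it is Lrmda, 29.9 kb away, which 2 of the 10 peaks overlapped. For Zfp703 it is Erlin2, 41.9 kb away, which 1 of the 12 peaks overlapped. On the lower-coordinate side the next protein-coding gene is 127.0 kb from Zfp503 and 813.2 kb from Zfp703.

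Among the genes with long zinc finger arrays, Zfp423 had more and wider peaks than Zfp521. The gene lengths are close, 300244 and 285737 bp. Zfp423 held 49 distal peaks, which added up to 51.3 kb, and Zfp521 held 32, which added up to 22.1 kb. Peaks covered 18.1% of the Zfp423 span and 8.49% of the Zfp521 span, and the mean for the longest of 10 length classes of protein-coding genes was 3.78%. By number, Zfp521 held 39.5% of the pair's distal peaks (exact 95% interval 28.8 to 51.0%), which also contains equal shares. With only peaks wider than the median of all peaks, the share was 31.0% and the interval, 17.6 to 47.1%, lay below 50%. The Zfp423 locus had 7 peaks of the broadest 5% (2545 bp or more) and the Zfp521 locus 2.

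The broad peaks of Zfp423 lay at each end of the gene and within it. A peak of 5691 bp covered its start (87957676 to 87963367) and one of 4817 bp its far end (87659657 to 87664474). Inside the gene the widest peaks were 5302 bp at 267.3 kb and 4388 bp at 125.0 kb from the start site, the latter just under the limit of the broadest 1%. At Zfp521 a single peak of that class, 4617 bp wide, lay at the higher-coordinate end, which the long non-coding gene 6330525I24Rik adjoins. The next widest, 3295 bp, lay 13.993 kb from the lower-coordinate end, an end without a peak of its own. The longest stretch without a peak measured 24909 bp in Zfp423 and 35546 bp in Zfp521.

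RefSeq lists a second start site for Zfp423, 157614 bp inside the span, and the data bear on both. The outer window lay wholly in the 5691 bp peak. The inner window lay wholly in a peak of 641 bp (87804244 to 87804885), near the median width of all peaks. Since it lies far from the ends of the span, this peak was counted among the 49 distal peaks of the locus. The 250 bases before each site are given to show how far the accessible starts of this gene differ in sequence.
Zfp423 outer start, chr8:87959596-87959845, strand -: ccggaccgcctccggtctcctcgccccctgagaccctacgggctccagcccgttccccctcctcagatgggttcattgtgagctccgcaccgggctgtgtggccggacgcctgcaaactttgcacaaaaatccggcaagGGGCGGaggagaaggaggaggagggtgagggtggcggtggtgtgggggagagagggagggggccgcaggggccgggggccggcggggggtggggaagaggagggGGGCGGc
Zfp423 inner start, chr8:87804440-87804689, strand -: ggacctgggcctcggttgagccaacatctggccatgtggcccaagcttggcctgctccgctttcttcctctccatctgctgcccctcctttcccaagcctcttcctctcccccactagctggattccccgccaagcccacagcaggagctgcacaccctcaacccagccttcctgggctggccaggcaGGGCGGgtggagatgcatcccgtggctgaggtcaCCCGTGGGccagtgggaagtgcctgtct
The outer sequence was 71.6% G or C with 18 CpG and held 2 GC boxes. The inner one was 64.8% G or C with 6 CpG, 1 GC box and 1 EBF core. Observed over expected CpG was 0.5997 in the outer and 0.236 in the inner sequence, against medians of 0.702 in windows met by a peak and 0.180 in the others.

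The teashirt genes had the widest spread in gene length, and Tshz2 led by number of peaks but not by its widest peak. Tshz2 spans 440243 bp and held 37 distal peaks, against 13 at Tshz1 (76082 bp) and 11 at Tshz3 (75436 bp). Tshz1 held 26% of the distal peaks of Tshz1 and Tshz2 (exact 95% interval 14.6 to 40.3%), and Tshz2 held 77.1% of those of Tshz2 and Tshz3 (62.7 to 88.0%). Neither interval contained equal shares, but neither share takes gene length into account. Relative to the means of their length classes among 10, Tshz2 exceeded Tshz1 by 1.37 times and Tshz3 by 1.62 times, but the class of Tshz2 runs from 108875 to 2390387 bp. With 50 narrower classes the order turned, with 1.69 times the class mean at Tshz2, 2.21 at Tshz1 and 1.87 at Tshz3. Tshz1 and Tshz3, which match in length, divided their distal peaks 54.2% to 45.8% (interval for Tshz1 32.8 to 74.4%).

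The widest peak of each locus ordered these paralogs differently, but the median width did not. Over all peaks it was 583 bp at Tshz2, 547 bp at Tshz1 and 501 bp at Tshz3. Distal peaks alone had medians of 494, 517 and 483 bp in the same order of genes. A peak of 5842 bp lay over the higher-coordinate end of Tshz1 and also over the end of its neighbour Zadh2, which lies 418 bp away, so that the peak cannot be given to either gene alone. Tshz3 had a peak of 4315 bp over its start (36695164 to 36699479), just short of the broadest 1%. That peak also met the end of Gm36722, which overlaps the Tshz3 span, and 4 of the 12 peaks of the locus overlapped Gm36722. Tshz2 had no peak of the broadest 5%, and its widest, 2254 bp, lay over its start (169632155 to 169634409). Peaks covered 11.6% of the Tshz1 span, 7.92% of Tshz3 and 5.44% of Tshz2.

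The start sequences of Tshz2 and Tshz3 are set side by side because the peaks over them differ in width, and both windows lay wholly inside those peaks.
Tshz2, chr2:169632259-169632508, strand +: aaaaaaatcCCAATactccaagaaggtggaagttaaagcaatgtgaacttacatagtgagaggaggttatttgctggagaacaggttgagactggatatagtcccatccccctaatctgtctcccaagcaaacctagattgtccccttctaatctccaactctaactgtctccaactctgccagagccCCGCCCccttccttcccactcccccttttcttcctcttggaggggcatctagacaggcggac
Tshz3, chr7:36697868-36698117, strand +: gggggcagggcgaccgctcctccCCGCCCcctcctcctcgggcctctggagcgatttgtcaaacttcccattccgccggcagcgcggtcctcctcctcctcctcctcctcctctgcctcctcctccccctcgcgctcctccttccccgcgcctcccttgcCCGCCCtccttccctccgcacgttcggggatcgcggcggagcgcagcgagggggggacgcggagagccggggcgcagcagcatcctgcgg
The Tshz3 sequence was 74% G or C with 27 CpG, an observed over expected ratio of 0.839. The Tshz2 sequence was 48.8% G or C with 2 CpG, a ratio of 0.142, which is below the median of windows without a peak. Tshz3 held 2 GC boxes, and Tshz2 held 1 GC box and 1 CCAAT box.

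Ikzf1 differed from the other 9 genes in having almost no peak along its body. Of its 6 peaks, 1 met the span of 87969 bp, a peak of 1794 bp over the first start site (11684749 to 11686543). From there to the end of the gene, 86387 bp, or 98.2% of the span, held no peak. The peak over the first start site also lay within 1000 bp of an end of another annotated gene, Gm11999. Peaks covered 1.80% of the span, against 17.6% at Bcl11a and 43.8% at Bcl11b, genes of the same length class. The mean of that class was 4.56%, and Bcl11a and Bcl11b stood at its 96.7 and 99.7 percentiles of coverage. Ikzf1 stood at the 28.8 percentile, so its low coverage was not unusual for its length. Of the remaining peaks, 1 lay on the lower side and 4 on the higher side. Of those 4, 1 overlapped Fignl1 and another, the widest of the locus at 3157 bp, lay inside Ddc, the gene of aromatic L-amino acid decarboxylase.

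RefSeq lists 2 start sites for Ikzf1, 963 and 5215 bp from the lower-coordinate end of the span, of which the first was accessible. They are printed because this is the one place among these genes where a start window lay outside every peak.
Ikzf1 first start, chr11:11685675-11685924, strand +: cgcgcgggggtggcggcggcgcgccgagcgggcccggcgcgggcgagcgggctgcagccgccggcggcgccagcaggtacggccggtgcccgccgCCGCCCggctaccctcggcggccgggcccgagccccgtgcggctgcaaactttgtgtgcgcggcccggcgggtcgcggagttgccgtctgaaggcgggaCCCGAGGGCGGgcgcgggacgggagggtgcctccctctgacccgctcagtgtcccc
Ikzf1 second start, chr11:11689927-11690176, strand +: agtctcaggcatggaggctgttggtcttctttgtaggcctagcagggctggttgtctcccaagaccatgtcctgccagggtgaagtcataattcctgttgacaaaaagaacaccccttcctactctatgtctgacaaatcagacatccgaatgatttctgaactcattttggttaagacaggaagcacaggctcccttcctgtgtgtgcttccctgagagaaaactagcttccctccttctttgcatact
The first sequence, wholly inside the 1794 bp peak, was 82% G or C with 44 CpG and an observed over expected ratio of 1.05. It held 2 GC boxes and 1 EBF core, and the core overlaps the GC box nearer to the start site. The second sequence, met by no peak, was 47.6% G or C with 1 CpG, a ratio of 0.0712, and held no match to any motif searched.

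Across all 9 start windows of the 7 genes with one in the RefSeq promoter table, 8 were met by a peak and all 8 lay wholly inside it, against 51.4% of 32851 windows of the table met by a peak. Exact matches were searched on both strands in the 250 bases before each site. GC boxes (GGGCGG) were present in 6 of 9 windows, against 32.7% of all windows in the table, and EBF cores (CCCNNGGG) in 3 of 9, at Bcl11b, the inner start of Zfp423 and the first start of Ikzf1, against 11.8%. CCAAT boxes (CCAAT) were present in 2 of 9, against 33.8%. No window held TAATTA, a site of DLX-type homeodomains (4.84% of all windows), TGACAG, a MEIS site (15.9%), or TGACCA, a BCL11A site (11.4%). TATAAA (12.4%), the E-box CAGCTG (13.0%) and the cAMP response element TGACGTCA (1.55%) were absent too. The Zfp503 window, under its broad peak, held none of these motifs, with 57.2% G or C and 13 CpG. A match is a stretch of letters and not a bound site, and its absence says only that the letters are not in this window. The shares over all windows of the table include windows without a peak, with a median of 46% G or C. Windows met by a peak had a median of 60%, and motif shares among them alone were not computed.

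To allow for gene length, distal peaks of each locus were divided by the mean of protein-coding genes in the same of 10 length classes. More distal peaks than in 90% of the class were found at 6 of 10 genes, against 9.91% of protein-coding genes. Bcl11b had 4.76 times the class mean (exact 95% Poisson interval 3.21 to 6.79, for counting only) and stood at the 99.9 percentile of its class, and Zfp423 had 3.74 times (2.77 to 4.95) at the 98.3. Tshz2 followed with 2.83 times, Bcl11a with 2.54, Zfp521 with 2.45 and Zfp703 with 2.40. The intervals of these 4 overlapped one another, and Zfp703 stood at the 90.2 percentile, just past the limit. Zfp503 (2.16 times), Tshz1 (2.06) and Tshz3 (1.75) lay at the 87.9, 89.2 and 83.7 percentiles. Ikzf1 was the single gene below its class mean, with 0.635 times (0.173 to 1.62) and 4 distal peaks. It stood at the 39.9 percentile of its class, whose median was 5 distal peaks, so its number of distal peaks was not unusual for its length.

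**Figure D2:**
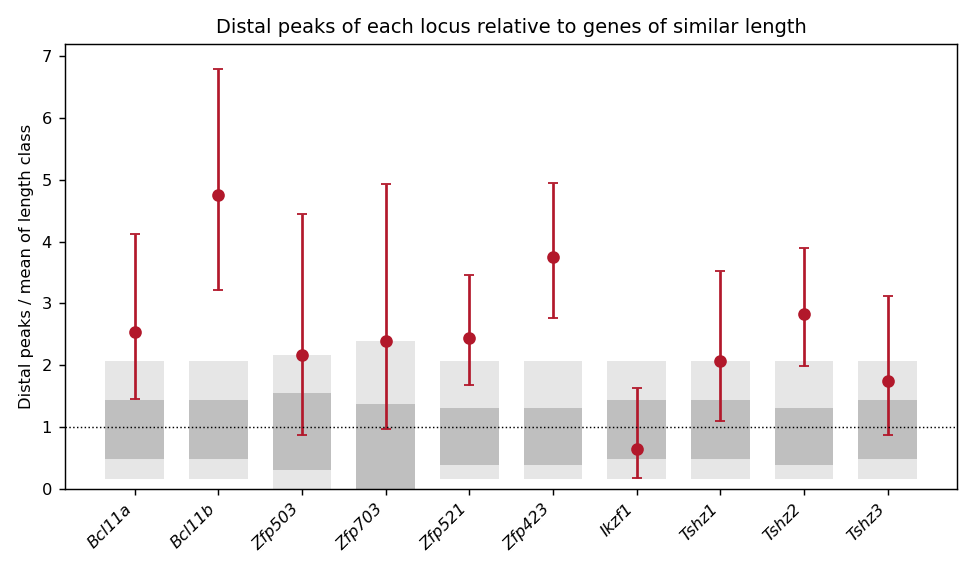
Distal peaks of each locus divided by the mean of its length class. Points are the 10 genes with exact 95% Poisson intervals, light bars run from the 10 to the 90 percentile of the class and dark bars over its quartiles. Bcl11b (4.76) and Zfp423 (3.74) lie highest and Ikzf1 (0.635) lies below 1.

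Some of these positions moved with the way peaks were given to genes. With 50 length classes Tshz2 fell to 1.69 times and the 82.0 percentile, and with a flank of 100 kb Bcl11a fell to 1.76 times and the 85.5 percentile. Zfp703 lay below the 90 percentile with 50 classes (88.2), with gene-end peaks counted too (85.7) and with a flank of 100 kb (80.7). With each peak given to the nearest gene span only, the ratio rose to 7.47 for Bcl11b, 11.3 for Zfp703 and 6.95 for Zfp503. Their own distal peaks did not increase, at 30, 7 and 5, so that the rise came from lower class means. Bcl11b rose to 8.99 times when base pairs replaced the number of peaks. Ikzf1 rose above its class mean, to 1.52 times, when only peaks wider than the median were kept, since all 4 of its distal peaks are wider. Those peaks lie outside the Ikzf1 span, and with the flanks left out Ikzf1 had no distal peak.

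Broad peaks were frequent at these genes. A peak of the broadest 1% lay within 1000 bp of the span at 7 of 10 genes, against 3.95% of protein-coding genes. These were Bcl11a, Bcl11b, Zfp503, Zfp703, Zfp521, Zfp423 and Tshz1, and their loci together held 12 such peaks. Bcl11b had 4 of them, Zfp423 had 3 and each of the remaining 5 had 1. In all 7 the widest peak of the locus lay at an end of the gene. The 3.95% is not matched for gene length. A broad peak was also found at 21 of 51 other zinc finger genes (41.2%), compared further on. Among the striatal and ganglionic eminence markers it was found at 11 of 15. At the narrow end, 5 peaks were under 20 bp, 3 of them at Zfp423, 1 at Zfp703 and 1 at Tshz2. Whether nearby regions had been merged is unknown, and a broad peak may hold closed stretches.

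**Figure D3:**
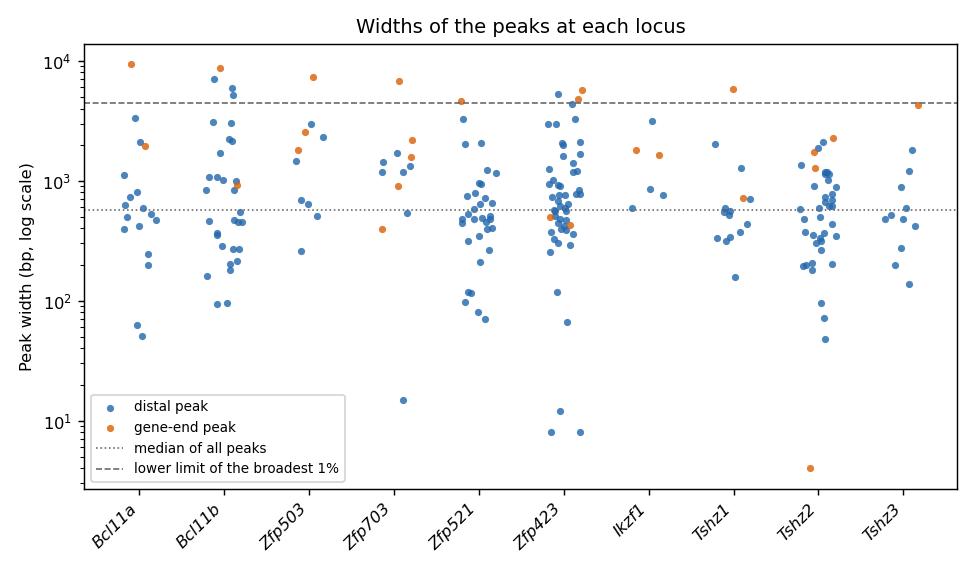
Width in bp, on a log scale, of every peak at each locus, with distal peaks in blue and gene-end peaks in orange. The dotted line is the median of all peaks (565 bp) and the dashed line the lower limit of the broadest 1% (4480 bp). Bcl11b and Zfp423 have distal peaks above the dashed line.

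Set side by side, 2 of the 6 paralog pairs had intervals that excluded equal shares, and both involved the long gene Tshz2. The Bcl11a share ranged from 23.7 to 36% over the alternative settings, and with a flank of 100 kb its interval (20.3 to 47.1%) lay below 50%. In every other setting that counted peaks, the interval of the Bcl11a share contained 50%. The Zfp521 share ranged from 30.1 to 40%. Bcl11a and Zfp521 held the smaller share of their pairs under each setting tried, and the lowest value of each came from counting base pairs. Tshz1 held 50 to 55.6% of the distal peaks of Tshz1 and Tshz3.

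**Figure D4:**
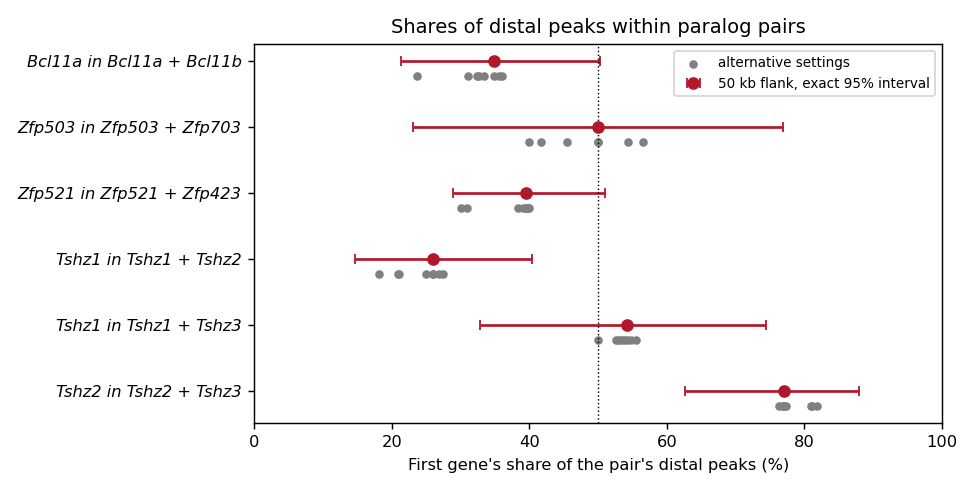
Share in percent of each pair's distal peaks that lay in the locus of the first gene, with exact 95% binomial intervals (red) and the values under alternative settings (grey). The intervals of the pairs with Tshz2 lie to one side of 50%, and those of the other 4 pairs contain it.

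Several of these genes have long stretches before the next protein-coding gene that does not overlap them, which a 50 kb flank cuts short. Over the autosomes there were 3.56 peaks per 100 kb. Bcl11b has 798.3 kb on its lower side before Gm52008, with 37 peaks or 4.64 per 100 kb, of which 26 lay more than 100 kb from the gene. On its other side, 102.3 kb before Setd3 held 6 peaks. Bcl11a has 2213.5 kb on its higher side before Fancl, with 67 peaks or 3.03 per 100 kb, and 66 of those lay beyond 100 kb. The widest there, 3183 bp, was 196.2 kb from the gene.

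Densities on the remaining long stretches ranged from 2.57 to 5.66 per 100 kb. Zfp703 had 46 peaks on its lower side before Thap1 (5.66 per 100 kb), and the widest, 2446 bp, was 710.3 kb away. Tshz2 had 32 peaks in the 676.9 kb before Zfp64 (4.73 per 100 kb). Tshz1 had 36 in the 1006.3 kb before Zfp516 (3.58 per 100 kb), where a peak of 3369 bp lay 373.4 kb from the gene. Tshz3 had 28 in 895.1 kb before Zfp507 (3.13 per 100 kb), a stretch that also holds part of Gm36722, and 14 in 544.5 kb before Zfp536 (2.57 per 100 kb). Zfp521 had 20 peaks towards Hrh4 (3.02 per 100 kb) and 17 towards Ss18 (2.60 per 100 kb). None of these stretches, nor those of Bcl11a and Bcl11b, held a peak of the broadest 1%. Zfp423 is the more crowded paralog, with 72.6 kb before 4933402J07Rik (4 peaks) and 156.7 kb before Cnep1r1 (8 peaks). Zfp503 had 6 peaks in 127.0 kb before A430057M04Rik, and Ikzf1 had 1 peak in the 57.1 kb before 4930512M02Rik and 1 in the 27.4 kb before Fignl1. Which gene a distant peak may serve cannot be read from positions.

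The other members of the Ikaros family also lay below the means of their length classes. Ikzf4, Ikzf5, Ikzf3 and Ikzf2 had 3, 2, 3 and 6 distal peaks, or 0.653, 0.536, 0.476 and 0.459 times the means of their length classes. They stood at the 42.2, 37.5, 29.9 and 30.1 percentiles. A place below the class mean is common, since the median ratio over all protein-coding genes was 0.793. Each of these Ikaros genes had a gene-end peak and none had a broad one. Peaks covered 1.91% of the Ikzf2 span and 2.58% of the Ikzf3 span, close to the 1.80% of Ikzf1, but 9.32% of the shorter Ikzf4 and 7.16% of the shorter Ikzf5. Ikzf2 is known from striatal neurons too, and Ikzf3 from lymphocytes.

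Against a list of 51 other zinc finger genes of neural development, the Ikaros genes included, the 10 genes had a higher median of distal peaks for their length. The median ratio to the length class was 2.42 for the 10 genes, 1.43 for the list and 0.793 over all protein-coding genes. Gene-end peaks were present at 49 of 51 listed genes, broad peaks at 21 and distal peaks above 90% of the class at 13. The highest ratios in the list were 5.88 at Zfhx3, 4.36 at Prdm16 and 3.74 at Zbtb20, against 4.76 at Bcl11b. The lowest were 0.308 at Osr1, 0.342 at Insm2 and 0.459, shared by Ikzf2 and Zeb1. The members and the list were both drawn up with results of these data known, and the difference between them was not tested.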

How the data were processed

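Single-nucleus ATAC-seq was done on 2 libraries of 1 group. The build was mm10, and Signac and Cell Ranger ATAC 1.2.0 are named, per the submitters' processing notes. The authors' deposited file lists peak positions only, so depth is unknown and no library could be left out. Peak calling and pooling are not given in the sources used here. Positions were left unchanged, and it is unknown whether they count from 0.

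Gene spans came from RefSeq GRCm38.p6, which matches mm10. Of its genes 49595 on main chromosomes were kept, 21774 of them protein-coding. Start sites and sequences came from the RefSeq promoter table, which held Bcl11a, Bcl11b, Zfp503, Zfp423, Ikzf1, Tshz2 and Tshz3 among those used. No protein sequences were used here, so the planned comparison of paralog proteins was not made. A peak met a locus with 1 bp of overlap. Length classes held 2177 or 2178 genes, and percentiles are mid-ranks within a class. Counting was tested on simulated data. Python 3.11.15, pandas 2.3.3 and scipy 1.17.1 were used.

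The genes, the comparison list and the markers were chosen with earlier results of these data known. Named were the 10 genes, their protein-coding neighbours, genes met or adjoined by the peaks described, the Ikaros genes and the 3 highest and 3 lowest of the list.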

Additional observations from a re-analysis of the deposited data

How the results depend on the processing

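The paralog shares, the counts of genes with gene-end or broad peaks, the count of genes above 90% of their class and the count of motifs kept within their limits under all 69 recomputations: a share within its exact 95% interval, a count within 1.5 times. These limits are wide, as with 23.0 to 77.0% for the Zfp503 share, and the gene-end count of 10 of 10 could not rise. Every recomputation reused the same peak list, so keeping within the limits is a weak check. The count above 90% ranged from 4 (flank of 100 kb) to 8 (flank of 10 kb), and pairs whose interval excluded equal shares numbered 2 or 3. Of the 90 recomputed ratios of single genes to their length class, 76 stayed within their counting interval and on the same side of 1, 10 moved beyond it and 4 crossed 1. The crossings were Ikzf1 with peaks wider than the median (1.52) and in base pairs (1.15), and Zfp503 and Zfp703 with the flanks left out (0 each). Leaving out the flanks was chosen after seeing the data, and for the Zfp503 and Zfp703 pair it leaves no distal peak and no share. A stricter peak threshold could not be had without scores. No paired analysis was possible because the peak list holds no value per library, and for the same reason no library was left out.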
